A study of Homo sapiens with 4 samples.

Results

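UPF1, UPF2, UPF3A, UPF3B, SMG1, SMG5, SMG6, SMG8 and SMG9 encode core factors of nonsense-mediated mRNA decay, and they were selected by gene name, with earlier results of these data known. All 9 were found among the 39306 gene names of each deposited table, and all 9 passed the filter on low values. Their mRNAs were measured by sequencing total RNA, with ribosomal RNA removed, from MHCC97H, a human liver cancer cell line known for its metastatic capacity. The 2 libraries of sh-HNRNPM cells, in which a short hairpin RNA lowers HNRNPM, were compared with 2 libraries of HNRNPM wild-type cells. HNRNPM is heterogeneous nuclear ribonucleoprotein M, an RNA-binding splicing regulator. The labels name no control hairpin in the wild-type cells and leave unsaid whether replicates came from separate cultures. The p-values therefore rest on library-to-library spread that could be technical. They also do not give the hairpin sequence, the number of hairpins or clones, or the time after knockdown.

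Nonsense-mediated decay removes mRNAs on which a ribosome stops too early, and it also sets the level of many normal mRNAs. UPF1 is the RNA helicase at its centre. UPF2 and the related proteins UPF3A and UPF3B link UPF1 to the exon junction complex, a protein mark left upstream of spliced junctions. SMG1 is the kinase that phosphorylates UPF1, and SMG8 and SMG9 bind SMG1 and hold its activity in check. Phosphorylated UPF1 is bound by SMG6, an endonuclease that cuts the RNA, and by SMG5, which takes part in bringing in deadenylation and decapping. Several of these factors' own mRNAs are known in human cells to be targets of the pathway, through which it limits itself.

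The promoter stretches of 3 genes, which lie outside their counted exons, and a pair of near-identical sequences are shown as reference sequence. The promoters are those of UPF1 and SMG9, whose mRNAs were lower in knockdown cells, and of UPF3B, whose values were higher without passing the test. Each is the reference stretch of 200 bases ending 51 bases upstream of a RefSeq transcription start (GRCh38.p14), wholly outside the gene as the files give it, 5′ to 3′ on the gene's strand. Capitals mark the GC box, GGGCGG on either strand, the letters bound by SP1-type factors. They lie at chr19:18831709-18831908 on the plus strand for UPF1, chr19:43755013-43755212 on the minus strand for SMG9 and chrX:119853014-119853213 on the minus strand for UPF3B.
UPF1: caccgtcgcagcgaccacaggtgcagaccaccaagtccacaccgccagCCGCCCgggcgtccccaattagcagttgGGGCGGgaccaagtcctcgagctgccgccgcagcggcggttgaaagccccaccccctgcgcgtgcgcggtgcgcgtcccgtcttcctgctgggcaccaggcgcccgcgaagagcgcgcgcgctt
SMG9: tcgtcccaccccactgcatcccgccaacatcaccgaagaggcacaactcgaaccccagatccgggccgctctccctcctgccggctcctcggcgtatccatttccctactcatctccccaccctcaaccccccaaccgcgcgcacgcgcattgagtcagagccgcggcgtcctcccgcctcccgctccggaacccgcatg
UPF3B: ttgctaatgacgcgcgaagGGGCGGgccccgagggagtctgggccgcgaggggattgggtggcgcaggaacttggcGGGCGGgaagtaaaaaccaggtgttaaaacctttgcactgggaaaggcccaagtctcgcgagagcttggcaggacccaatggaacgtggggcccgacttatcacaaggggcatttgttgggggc
The UPF1 stretch was 72.5% G or C with 2 GC boxes, the UPF3B stretch 61.5% with 2 and the SMG9 stretch 67.5% with 0. The 8 members with a RefSeq entry had 9 such stretches outside the gene, SMG5 having 2, and 7 of the 9 held a GC box. Of 35116 RefSeq windows of the same length, inside or outside genes, 35% did. SMG9 held the ETS core CCGGAA instead, a word found on either strand in 10% of the windows. The word TATAAA of the TATA box was found in none of the 3 stretches shown and in 7.63% of all windows, again on either strand. Since all windows end 51 bases upstream of the start, a TATA box nearer to it would be missed. The search therefore does not show whether these promoters have one. These matches describe letters, not bound sites, and no binding was measured here.

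The second pair concerns SMG1, which has pseudogene copies on the same chromosome that share part of its sequence. The stretch below, of 60 bases, lies in the coding sequence of SMG1 from base 80 to base 139, counted from the start codon, and in the most highly counted copy, SMG1P3, from base 98 to base 157 of its transcript. The capital marks the only base that differs. The search took the first coding stretch of this length with a single difference from SMG1P3 near its middle. The pair therefore does not measure how alike the whole genes are.
SMG1: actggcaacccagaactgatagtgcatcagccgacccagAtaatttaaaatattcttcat
SMG1P3: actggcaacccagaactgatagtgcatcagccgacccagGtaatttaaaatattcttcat
Of all stretches of 100 bases in SMG1 transcripts, 7.4% occurred letter for letter in a named copy, and 11% of those of SMG1P3 occurred in SMG1. Reads from such stretches could be counted to either gene. UPF3A also has copies, with which it shared 10.8% of its stretches of 100 bases, but it shared 0 with UPF3B, so exact repeats of that length do not mix the counts of the UPF3 pair.

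The libraries held 12708165 and 11498663 assigned reads in knockdown cells, against 18317579 and 19659106 in wild-type cells. HNRNPM, the targeted gene, measured 21.8 and 20.4 RPKM (reads per exon kilobase, relative to all assigned reads) in knockdown libraries, against 51.3 and 51.6 RPKM in wild-type libraries, over exons of which 345 bp lie opposite the antisense gene RP11-886P16.10. On the log2 scale this was a difference of -1.35 ± 0.07 (SE; adjusted p = 0.00270 by limma). Markers of hepatocytes summed to 36.6 and 35.4 RPKM in knockdown libraries, against 40.03 and 38.7 RPKM in wild-type libraries, with 6 of 9 averaging above 1 RPKM and AFP, APOA1 and TTR below. The markers did not move together. ALB, the defining one, measured 1.75 and 1.78 RPKM in knockdown libraries, against 5.35 and 6.28 RPKM in wild-type libraries, while the liver transcription factor FOXA2 measured 14.6 and 12.6 RPKM in knockdown libraries, against 10.8 and 9.32 RPKM in wild-type libraries. HNF4A measured 7.86 and 7.49 RPKM in knockdown libraries, against 6.51 and 6.31 RPKM in wild-type libraries. Epithelial markers summed to 1079 and 1123 RPKM in knockdown libraries, against 880 and 787 RPKM in wild-type libraries, nearly all from KRT8 and KRT18. The keratin KRT8 was abundant in every library, at 638 and 672 RPKM in knockdown cells and 538 and 506 RPKM in wild-type cells. CDH1 measured 2.37 and 2.10 RPKM in knockdown libraries, against 2.16 and 2.82 RPKM in wild-type libraries, and EPCAM stayed under 0.35 RPKM. The 3 leukocyte markers summed to 61.7 and 60.2 RPKM in knockdown libraries, against 47.3 and 58.5 RPKM in wild-type libraries, nearly all from the lysosomal gene CD68, and the defining marker PTPRC was at 0 in 3 of 4 libraries and 0.0376 RPKM in knockdown replicate 1. CD14 measured 0.125 and 0.138 RPKM in knockdown libraries, against 0.839 and 0.728 RPKM in wild-type libraries. Endothelial markers summed to 6.02 and 6.18 RPKM in knockdown libraries, against 8.92 and 9.42 RPKM in wild-type libraries, mostly from PECAM1. VWF and CDH5 stayed under 0.35 RPKM, with CDH5 at 0.145 and 0.146 RPKM in knockdown libraries and 0.311 and 0.332 RPKM in wild-type libraries. Fibroblast markers summed to 3.49 and 3.33 RPKM in knockdown libraries, against 1.17 and 1.35 RPKM in wild-type libraries. Most of this was LUM, at 2.98 and 2.69 RPKM in knockdown libraries and 1.07 and 1.18 RPKM in wild-type libraries. COL1A1, COL1A2, PDGFRB and DCN each stayed under 0.35 RPKM, though each was higher in both knockdown libraries than in either wild-type library. The part of these differences in the results was not tested.

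Across the 9 genes, 3 fell with knockdown, UPF1, SMG8 and SMG9, 0 rose, and 6 did not pass the test. At an unadjusted p under 0.05, limma gave 1 higher, UPF3B, and 4 lower, and limma-voom on the recovered reads called 1 higher and 4 lower. Over all 20221 tested genes, 8250 had an unadjusted p under 0.05 by limma in either direction. Limma-voom called 3278 of the 20221 higher and 3954 lower. Calls rest on limma's moderated test of log2(RPKM + 0.1) after library scaling, two-sided, with Benjamini-Hochberg adjustment over 20221 tested genes and a threshold of 0.05. By that rule 24.9% of all tested genes differed, 11.1% being higher in knockdown cells and 13.8% lower. With 9 members, the count of 3 lower stands beside that background, and beside 19.7% lower among the 7463 genes whose exon length and RPKM lay within the members' range. The median log2 fold change was -0.17 over the 9 genes, -0.07 over those 7463 genes and -0.03 over all tested genes. In 3 members both knockdown values (scaled RPKM) lay above both wild-type values, and in 5 they lay below, against 31% and 36.6% of all tested genes. Bulk RNA gives an average over the culture, so fewer cells of a type and less RNA per cell cannot be told apart.

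**Figure D1:**
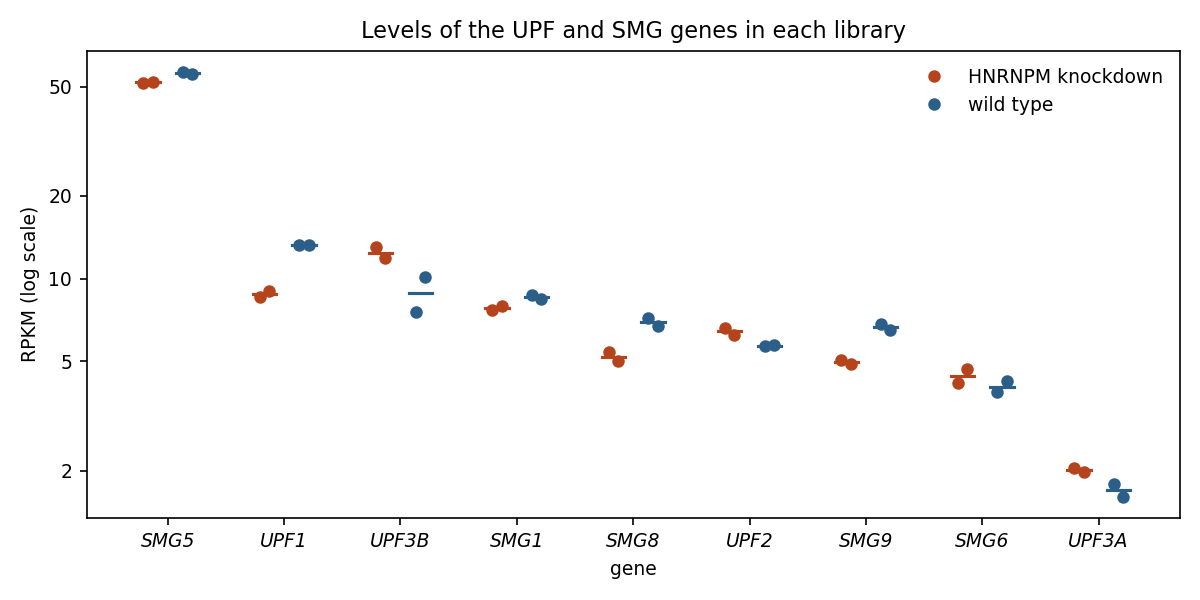
Level of each of the 9 genes in every library, in RPKM as deposited on a log scale, with HNRNPM knockdown left of wild type for each gene. Points are libraries and bars are group means (n = 2 each); UPF1, SMG8 and SMG9 lie lower in both knockdown libraries, and SMG5 stands above all other members in both groups.

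UPF1 (chromosome 19, positions 18831938 to 18868236, plus strand, GRCh38) had the largest fold change of the 9, and it fell by 36.2% in knockdown cells. It was measured over 8600 bp of annotated exon at 8.56 and 9.04 RPKM (936 and 894 reads) in knockdown libraries, against 13.2 and 13.3 RPKM (2084 and 2246 reads) in wild-type libraries. The groups did not overlap, and the gap between them was larger than the spread within either. The log2 fold change of UPF1, -0.65 ± 0.08 (SE; adjusted p = 0.00644 by limma), equals a fold of 0.638 with a 95% interval of 0.557 to 0.730. Leaving out knockdown replicate 1 gave -0.58 with a limma adjusted p of 0.0546, just short of passing, and without each of the other libraries the call held.

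UPF2 and the UPF3 genes did not pass the test in either direction. UPF2 (chromosome 10, positions 11920022 to 12043170, minus strand), the bridge between UPF1 and UPF3, measured 6.64 and 6.23 RPKM in knockdown libraries, against 5.68 and 5.74 RPKM in wild-type libraries. Both knockdown values lay above both wild-type values, with a log2 fold change of 0.11 ± 0.09 (SE; limma adjusted p = 0.420) and a 95% interval of the fold of 0.923 to 1.25. The ratio of UPF1 to UPF2 was 1.29 and 1.45 in knockdown libraries, against 2.33 and 2.31 in wild-type libraries. These ratios do not depend on how the libraries are scaled. The difference of -0.75 on the log2 scale, taken after adding 0.1 to each scaled value, depends on it only through that addition. Its exact permutation test gave p = 0.333 (two-sided), the smallest p that 2 libraries against 2 allow.

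UPF3B, the X-linked UPF3 gene, had the largest positive value of the 9 but also the widest spread within a group. It lies on chromosome X at positions 119805311 to 119852998, minus strand, and measured 13.0 and 11.9 RPKM (509 and 421 reads) in knockdown libraries, against 7.58 and 10.1 RPKM (428 and 612 reads) in wild-type libraries. The groups did not overlap, but the wild-type libraries differed from each other by more than the nearest knockdown and wild-type libraries did. The log2 fold change of UPF3B, 0.44 ± 0.15 (SE; adjusted p = 0.0878 by limma), equals a fold of 1.35 with a 95% interval of 1.04 to 1.76. It passed in limma-voom, which weights each value by its read count (0.44, adjusted p = 0.00505), and without wild-type replicate 2 (0.65, adjusted p = 0.0199), and was 0.22 without wild-type replicate 1.

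UPF3A, the paralog of UPF3B, was the least abundant member. At chromosome 13, positions 114281584 to 114305817, plus strand, it measured 2.04 and 1.97 RPKM in knockdown libraries, against 1.79 and 1.61 RPKM in wild-type libraries, from 131 to 189 reads per library. The log2 fold change of UPF3A was 0.17 ± 0.13 (SE; adjusted p = 0.394 by limma). In human cells UPF3A protein is known to build up when UPF3B is lost. Here UPF3B was not lost and only RNA was measured, so the ratio of the pair describes RNA levels and cannot examine that effect. The ratio of UPF3A to UPF3B was 0.157 and 0.166 in knockdown libraries, against 0.236 and 0.160 in wild-type libraries. The groups overlapped, with a difference of -0.27 on the log2 scale (exact permutation p = 0.667, two-sided), which became 0.01 without wild-type replicate 1. Of the UPF3A copies, UPF3AP1 passed the test as higher (0.86 ± 0.18 SE on the log2 scale, limma adjusted p = 0.0241), but from 13 and 11 reads in knockdown libraries and 8 and 10 reads in wild-type libraries, and 45.8% of its stretches of 100 bases were shared with UPF3A. Only its knockdown values reached the minimum level for testing, so it entered the test through the group in which it was high, and its call supports nothing.

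**Figure D2:**
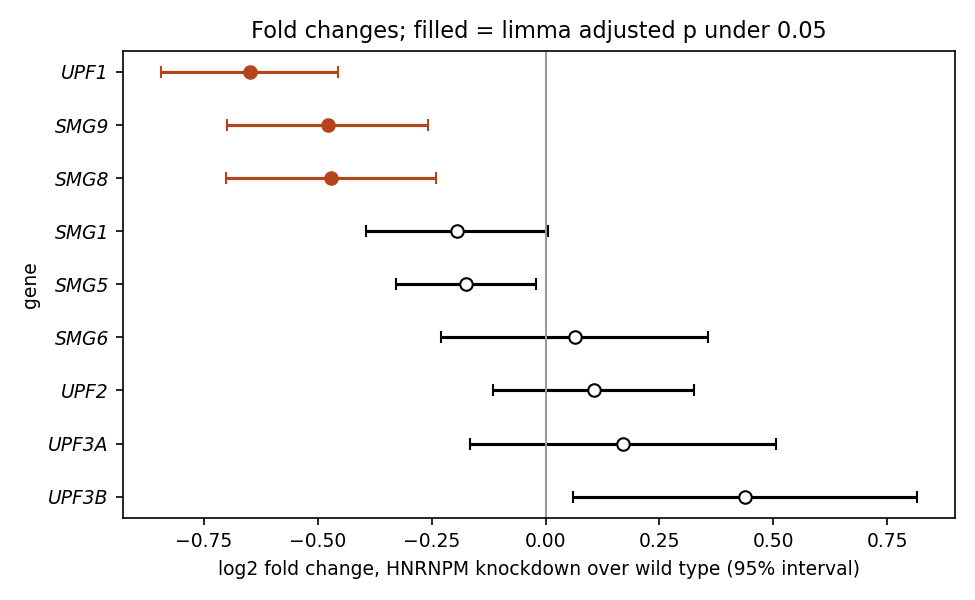
Log2 fold change of each gene, HNRNPM knockdown over wild type, with its 95% interval from limma (n = 2 libraries a group). Filled points, those of UPF1, SMG9 and SMG8, passed the threshold of 0.05 on the adjusted p, and all 3 lie below 0.

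The partners of the SMG1 kinase passed the test by limma and SMG1 did not, though the 95% interval of SMG1 overlapped theirs. SMG9 and SMG8, which bind each other and SMG1, fell by 27.8% (SMG8) and 28.2% (SMG9), while SMG1 itself did not pass the test. SMG9 (chromosome 19, positions 43727992 to 43754990, minus strand) measured 5.04 and 4.88 RPKM (508 and 445 reads) in knockdown libraries, against 6.82 and 6.49 RPKM (990 and 1011 reads) in wild-type libraries. The log2 fold change of SMG9, -0.48 ± 0.09 (SE; adjusted p = 0.0180 by limma), equals a fold of 0.718 with a 95% interval of 0.616 to 0.837. SMG8 (chromosome 17, positions 59209400 to 59215247, plus strand) measured 5.41 and 5.01 RPKM (258 and 216 reads) in knockdown libraries, against 7.17 and 6.71 RPKM (493 and 495 reads) in wild-type libraries. The log2 fold change of SMG8, -0.47 ± 0.09 (SE; adjusted p = 0.0213 by limma), equals a fold of 0.722 with a 95% interval of 0.615 to 0.847. For neither gene did the groups overlap. Neither call held without knockdown replicate 1, knockdown replicate 2 or wild-type replicate 1. The adjusted p was then 0.0979, 0.0907 and 0.0518 for SMG9 and 0.0915, 0.109 and 0.0616 for SMG8, with log2 fold changes between -0.50 and -0.43. SMG8 shares 422 bp, 11.25% of its exons, with the same-strand gene CTD-2510F5.6, so reads there cannot be given to either gene with certainty.

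SMG8 and SMG9 stood at similar RPKM levels in every library. The ratio of SMG9 to SMG8 was 0.932 and 0.975 in knockdown libraries, against 0.950 and 0.967 in wild-type libraries, a difference of -0.01 on the log2 scale (exact permutation p = 1, two-sided). SMG1 (chromosome 16, positions 18804853 to 18926454, minus strand) measured 7.71 and 7.95 RPKM (2546 and 2377 reads) in knockdown libraries, against 8.71 and 8.47 RPKM (4148 and 4326 reads) in wild-type libraries. The groups did not overlap, but the log2 fold change of -0.19 ± 0.08 (SE) had a limma adjusted p of 0.129, and the 95% interval of its fold ran from 0.761 to 1.003. By limma-voom it passed (-0.20, adjusted p = 0.0329). The ratio of SMG1 to SMG8 was 1.42 and 1.59 in knockdown libraries, against 1.21 and 1.26 in wild-type libraries, a difference of 0.28 on the log2 scale (exact permutation p = 0.333, two-sided).

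The copies of SMG1 took about as many reads as SMG1 itself. SMG1P1 to SMG1P7 summed to 2591 and 2357 reads in knockdown libraries, against 4155 and 4408 in wild-type libraries. SMG1P3 alone measured 16 and 17.3 RPKM in knockdown libraries, against 18.0 and 18.4 RPKM in wild-type libraries, with a log2 fold change of -0.19 ± 0.08 (SE; limma adjusted p = 0.127). None of the 7 copies passed limma's test, and 0 had an unadjusted p under 0.05, with log2 fold changes between -0.40 and -0.11. When the reads of SMG1 and its copies were summed before the fit, the log2 fold change was -0.20 and the limma adjusted p 0.0839. The result for SMG1 was therefore about as large with the copies' reads as without them, though reads of the shared stretches cannot be told apart. Some copies also share same-strand exons with other genes, as SMG1P1 does over 29.25% of its exons. Reads there cannot be given to either gene with certainty.

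The factors that act on phosphorylated UPF1 did not pass the test. SMG5 (chromosome 1, positions 156249224 to 156282825, minus strand) measured 51.5 and 52.0 RPKM (3472 and 3174 reads) in knockdown libraries, against 56.5 and 55.4 RPKM (5487 and 5773 reads) in wild-type libraries. The groups did not overlap, and the difference was larger than the spread in either, but the log2 fold change of -0.17 ± 0.06 (SE) had an adjusted p of 0.0932 by limma. SMG6 (chromosome 17, positions 2059839 to 2303771, minus strand), the endonuclease, measured 4.19 and 4.68 RPKM in knockdown libraries, against 3.87 and 4.24 RPKM in wild-type libraries. It was the only member whose groups overlapped, with a log2 fold change of 0.06 ± 0.12 (SE; limma adjusted p = 0.720) and a 95% interval of the fold of 0.853 to 1.28. Of the SMG6 exons, 22.92% (2419 bp) lie opposite the gene HIC1, a transcriptional repressor gene on the plus strand, which measured 1.42 and 1.76 RPKM in knockdown libraries and 1.28 and 1.38 RPKM in wild-type libraries. Without a stated strand setting of the counting, reads of this pair cannot be told apart. The ratio of SMG5 to SMG6 was 12.3 and 11.1 in knockdown libraries, against 14.6 and 13.1 in wild-type libraries (-0.24 on the log2 scale, exact permutation p = 0.333, two-sided).

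The order of RPKM levels among the members ran over a wide range in both groups. SMG5 was highest, above 95.7% of tested genes in knockdown cells and 96.3% in wild-type cells. UPF3A was lowest, above 35.4% in knockdown cells and 31.7% in wild-type cells. In knockdown cells SMG5 was followed by UPF3B, UPF1, SMG1, UPF2, SMG8, SMG9, SMG6 and UPF3A, and SMG8 and SMG9 were the only neighbours whose values overlapped. In wild-type cells SMG5 was followed by UPF1, UPF3B, SMG1, SMG8, SMG9, UPF2, SMG6 and UPF3A, with overlap between UPF3B and SMG1 and between SMG8 and SMG9. UPF1 thus stood above UPF3B in both wild-type libraries and below it in both knockdown libraries. RPKM divides by all annotated exon sequence of a gene, which for SMG1 is 25988 bp against 16115 bp in its longest coding transcript, so levels between genes depend on the annotation too.

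Summed over the 9 genes, the level was 104 and 104 RPKM in knockdown libraries, against 111 and 112 RPKM in wild-type libraries. After library scaling the sums averaged 102 ± 0.501 RPKM in knockdown cells and 114 ± 1.52 RPKM in wild-type cells (SD, n = 2 each), and the scaled sum fell short of wild type by 12.5 RPKM. The exact permutation test over the libraries gave p = 0.333 (two-sided), the smallest possible here. SMG5 was the largest term of the sum in every library. The 9 genes took 0.0743% and 0.0752% of assigned reads in knockdown libraries, against 0.0829% and 0.0824% in wild-type libraries.

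The genes most like UPF1 in pattern were sought among 7001 genes of a mean of at least 5 RPKM, by the distance between log2 values centred on each gene's mean over the 4 libraries. EPHA2, an ephrin receptor kinase, was nearest with a distance of 0.0150 and a log2 fold change of -0.66. GPAA1, a subunit of the GPI transamidase, followed with 0.0312 and -0.68, and AKR1B15, an aldo-keto reductase, with 0.0325 and -0.66. With 4 libraries in 2 groups, such a likeness mostly reflects a similar fold change.

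In the GENCODE 29 annotation, the members differed in features that are known to attract the pathway. The 3′ UTR of the transcript with the longest coding sequence measured 4716 bases in SMG1 and 3604 bases in SMG9, longer than in 93.5% and 88.4% of 13137 tested coding genes, whose median was 908 bases. UPF1 had 1712 bases, SMG6 1649, SMG5 1363 and UPF2 1276, all above the median, while UPF3A with 900 and UPF3B with 856 lay near it and SMG8 with 237 well below. The 3 genes that fell thus held 3′ UTRs of 237, 1712 and 3604 bases. Transcripts annotated as decay substrates were listed for 3 of 9 members, SMG1, SMG8 and SMG9, with 1 each, against 41.9% of tested coding genes. Retained-intron transcripts were listed for 7 of the 9. The gene-level values do not separate transcripts, so the use of these forms was not measured here.

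Outside the 9 genes, the other factors reported to act in the pathway were mixed. Of 12, 1 rose and 4 fell, with a median log2 fold change of -0.18. Among all tested genes, 11.1% were called higher and 13.8% lower. TELO2, which helps SMG1 and related kinases to mature, fell to 6.44 and 5.58 RPKM in knockdown libraries, against 9.04 and 8.70 RPKM in wild-type libraries (log2 fold change -0.62, limma adjusted p = 0.0121). The ATPase RUVBL1, which works with TELO2 in that process and is also known to act with SMG1, fell by 0.27 on the log2 scale (limma adjusted p = 0.0374). SEC13, a coat and nuclear pore protein, rose by 0.31 (limma adjusted p = 0.0256), and NBAS and the helicase MOV10 were the other 2 that fell. The 4 falls became 1 with values as deposited or after removal of the exon length trend, 0 with no filter, and 0 or 1 without any single library.

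SMG1 belongs to a family of large PI3K-related kinases, and its 5 relatives all fell. Their median log2 fold change was -0.60 and their median exon length 13218 bp. Among all tested genes 13.8% were called lower, and 15.8% of the tenth with the longest exons. PRKDC, the DNA-dependent protein kinase, measured 77.5 and 75.9 RPKM in knockdown libraries, against 121 and 119 RPKM in wild-type libraries (log2 fold change -0.71, limma adjusted p = 0.00428). ATR, a checkpoint kinase, measured 4.70 and 4.55 RPKM in knockdown libraries, against 7.87 and 7.50 RPKM in wild-type libraries (-0.78, limma adjusted p = 0.00585). TRRAP, a kinase-like scaffold of acetyltransferase complexes, fell by 0.52 (limma adjusted p = 0.00667), and the growth kinase MTOR and the checkpoint kinase ATM fell by 0.60 and 0.43. The count of 5 was 2 and 3 without knockdown replicates 1 and 2, and 4 without either wild-type replicate. SMG1, at -0.19, lay above all 5, but no test of that difference was run.

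In the exon junction complex, which UPF3B binds, the genes that passed were higher in knockdown cells. Of its 11 core and peripheral genes 5 rose and 0 fell, with a median of 0.26. Among all tested genes, 11.1% were called higher and 13.8% lower. At an unadjusted p under 0.05 limma gave 7 of the 11 higher and 0 lower, and limma-voom called 6 and 0. The shares above do not apply to these looser rules. Of 20221 tested genes, 8250 had an unadjusted p under 0.05 by limma in either direction, and limma-voom called 3278 higher and 3954 lower. RBM8A, which encodes the core protein Y14, measured 26.4 and 25.3 RPKM in knockdown libraries, against 19.4 and 18.2 RPKM in wild-type libraries (log2 fold change 0.39, limma adjusted p = 0.0154). Its partner MAGOH rose by 0.45 (limma adjusted p = 0.0184) and the peripheral factor SAP18 by 0.59 (limma adjusted p = 0.0219), while RNPS1 and ALYREF were the other 2 that rose. No call was made without knockdown replicate 1 or without knockdown replicate 2, 3 calls without wild-type replicate 2 and 5 without wild-type replicate 1. The median exon length of the 11 genes was 4856 bp, against 5906 bp for the 9 members, and over all tested genes 16.4% of the tenth with the shortest exons were called higher, against 6.03% of the tenth with the longest. With the exon length trend removed, 4 of the 11 rose, and with no filter 1 did.

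**Figure D3:**
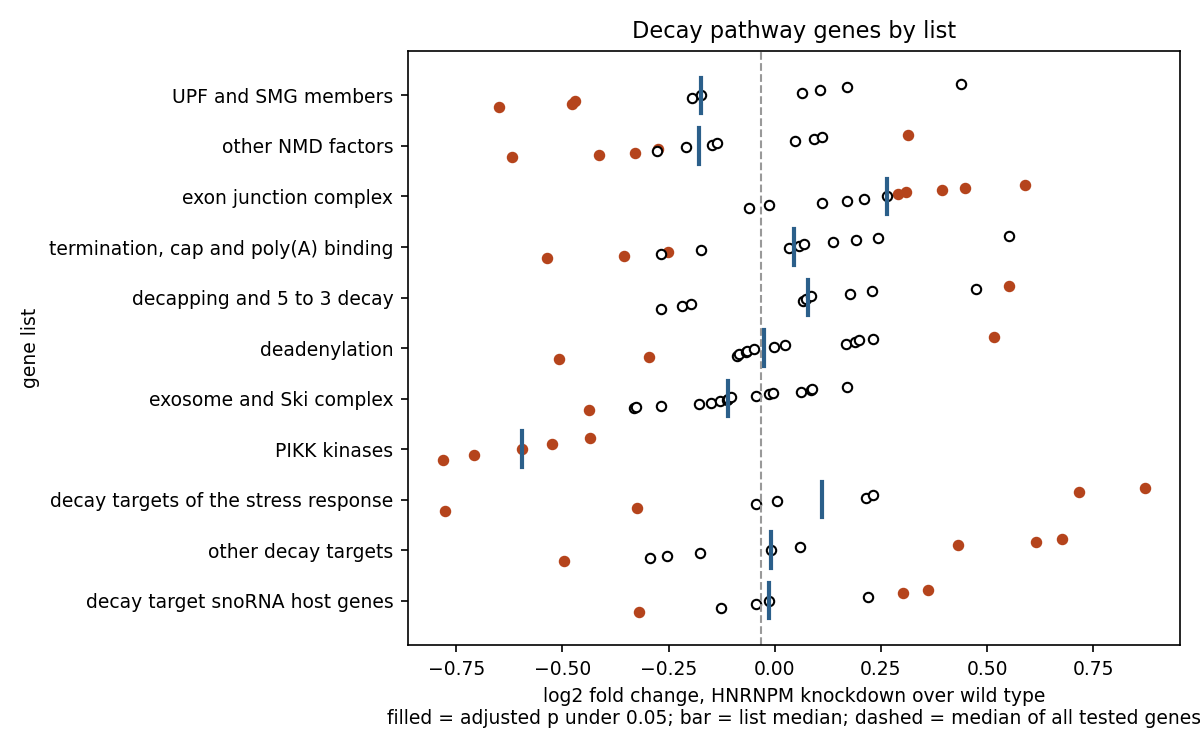
Log2 fold change of every tested gene of the 9 members and 10 other lists of the decay pathway, HNRNPM knockdown over wild type; the small vertical offsets only separate points. Filled points had an adjusted p under 0.05, solid bars are list medians and the dashed line is the median of all tested genes; the 5 PI3K-related kinases all lie below 0, and 9 of 11 exon junction genes lie above 0.

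The calls among the machinery upstream and downstream of the 9 genes went in both directions. They stand beside 11.1% of all tested genes called higher and 13.8% called lower, and no list was tested against those shares. Counts by unadjusted p or limma-voom stand beside larger ones. Of 20221 tested genes, 8250 had an unadjusted p under 0.05 by limma in either direction, and limma-voom called 3278 higher and 3954 lower. Of 12 genes of translation termination, cap and poly(A) binding, 0 rose and 3 fell, with a median of 0.05; limma gave 2 higher at an unadjusted p under 0.05 and limma-voom called 3 higher. EIF4G1, the scaffold of the cap-binding complex, measured 97.9 and 98.5 RPKM in knockdown libraries, against 137 and 136 RPKM in wild-type libraries (log2 fold change -0.54, limma adjusted p = 0.00647). The nuclear cap-binding gene NCBP1 fell by 0.36 (limma adjusted p = 0.0403) and GSPT1, the release factor eRF3a, which UPF1 contacts on stalled ribosomes, by 0.25 (limma adjusted p = 0.0424). Of 10 decapping and exonuclease genes, PATL1 rose by 0.55 (limma adjusted p = 0.00655) and 0 fell, while limma gave 2 lower at an unadjusted p under 0.05 and limma-voom called 2 lower. Of 14 deadenylation genes 1 rose, CNOT8 by 0.52 (limma adjusted p = 0.0163), and 2 fell, PAN2 by 0.51 (limma adjusted p = 0.0290) and CNOT1 by 0.30 (limma adjusted p = 0.0303). Of 17 exosome and Ski complex genes the nuclease DIS3L fell, by 0.44 (limma adjusted p = 0.0412), and 0 rose, while limma gave 3 lower and 0 higher at an unadjusted p under 0.05 and limma-voom called 3 lower and 0 higher. With values as deposited the falls were 1 in the first of these lists, 0 in the decapping list, 1 in the deadenylation list and 0 in the exosome list. Without knockdown replicate 1 these 4 lists held 1 call in all, a rise in the decapping list, and without knockdown replicate 2 they held 0. Without wild-type replicate 1 or 2 the termination and cap list held 1 fall, the decapping list 1 rise, and the deadenylation list 1 rise and 1 fall.

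Transcripts known as decay targets moved in both directions. The counts in the 3 lists below stand beside 11.1% of all tested genes called higher and 13.8% called lower. Of 8 stress-response targets 2 rose and 2 fell, with a median of 0.11. ATF3, a stress-induced transcription factor, measured 3.97 and 3.66 RPKM in knockdown libraries, against 1.80 and 2.12 RPKM in wild-type libraries (log2 fold change 0.87, limma adjusted p = 0.0118). GADD45B, a growth arrest gene, rose by 0.72 (limma adjusted p = 0.00745). ASNS, asparagine synthetase, fell to 5.56 and 5.99 RPKM in knockdown libraries, against 10.1 and 8.96 RPKM in wild-type libraries (-0.78, limma adjusted p = 0.00725), and the aminoacyl-tRNA synthetase gene CARS was the other that fell. Of 9 other reported targets 3 rose, the autophagy gene GABARAPL1 by 0.68 (limma adjusted p = 0.0112), the co-chaperone BAG1 by 0.62 (limma adjusted p = 0.00929) and the kinase PIM3 by 0.43 (limma adjusted p = 0.0263), and MAP3K14 fell. The median of these 9 was -0.01. Of 7 snoRNA host genes, whose spliced RNAs are decay substrates, ZFAS1 and GAS5 rose by 0.30 and 0.36 (limma adjusted p = 0.0331 and 0.0356) and SNHG1 fell by 0.32 (limma adjusted p = 0.0338), with a median of -0.01. Without knockdown replicate 1 the rises in the 3 lists numbered 1, 0 and 0, and without knockdown replicate 2 they numbered 2, 0 and 0. Without wild-type replicate 1 they numbered 3, 2 and 1, and without wild-type replicate 2 they numbered 2, 3 and 0. The falls in the 3 lists numbered between 0 and 1 each without any of the libraries.

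**Figure D4:**
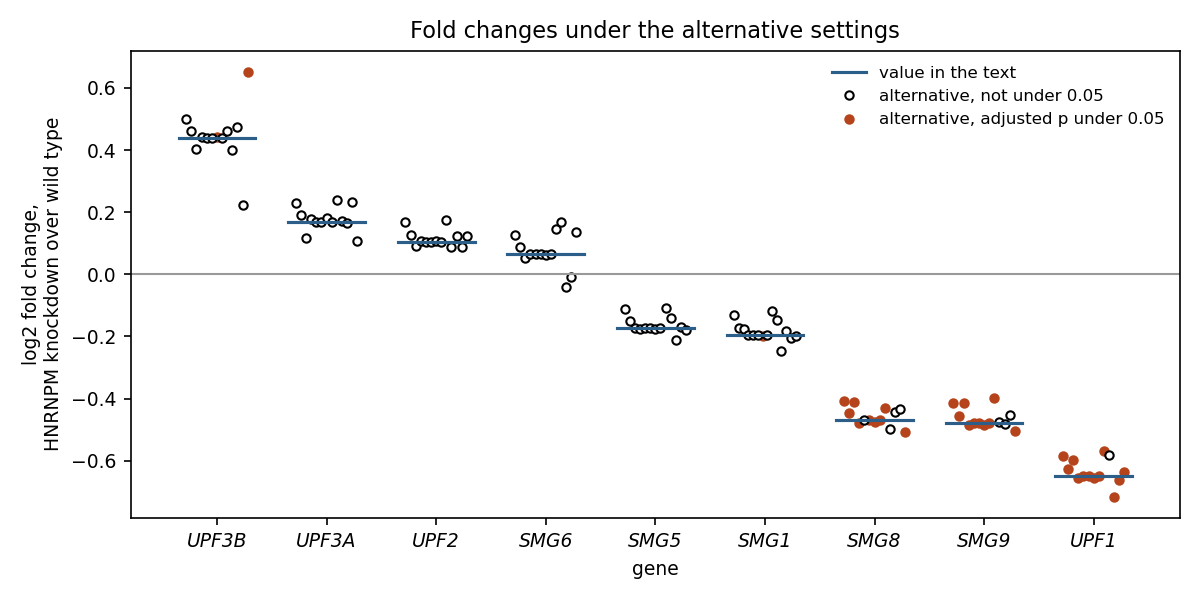
Log2 fold change of each of the 9 genes, HNRNPM knockdown over wild type, under every alternative setting, with the value given in the text as a bar and filled points where the adjusted p was under 0.05. UPF1 passed in 12 of 13 alternatives, SMG9 in 10 and SMG8 in 9, and SMG6 was the only gene with values on both sides of 0.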

How the data were processed

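Libraries were prepared from TRIzol RNA with ribosomal RNA depletion and a stranded kit with molecular identifiers and sequenced paired-end, per the labels' protocols. The authors deposited 1 RPKM value per gene name and library with its merged exon length, and StringTie 1.3.2, edgeR 3.12.1, featureCounts, Subread 1.5.1 and Trimmomatic 0.36 were among the tools, per the submitters' processing notes. No aligner, strand setting or use of the identifiers is given in the sources used. The build is noted as mm9, but 93.6% of 26367 names had the start and end of human GENCODE 29 (GRCh38).

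RPKM were divided by TMM factors (0.972 to 1.03) computed on read numbers recovered from them (100% whole within 0.01 read) and tested with limma 3.58.1 in R 4.3.3 on log2(RPKM + 0.1), which understates changes of low genes. Genes needed the equivalent of 10 reads at median depth in at least 2 libraries and 15 reads in all. Residual degrees of freedom were 2 and prior ones 3.56. The members and lists were chosen with earlier results of these data known. Named genes were the 9 members, HNRNPM, copies of members, up to 3 passing genes per list (smallest adjusted p first), and the 3 most like UPF1. An item of that rule is not reported here. NBAS, MOV10, RNPS1, ALYREF, MTOR, ATM, CARS and MAP3K14 are named to complete small counts, chosen after their values were seen, and HIC1 and CTD-2510F5.6 as genes overlapping members. The procedure was tested on simulated data. Alternatives were other scalings, pseudocounts, filters, limma-voom, a replicate block, removal of an exon length trend and leaving out each library.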

Additional observations from a re-analysis of the deposited data

How the results depend on the processing

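UPF1, UPF2, UPF3A, UPF3B, SMG1, SMG5, SMG8 and SMG9 kept their direction under every alternative run, and over all 9 members 105 alternative values kept both direction and side of the threshold, 8 fell short of it, 3 came past it and 2 reversed. SMG6 reversed without knockdown replicate 2 (-0.042) and without wild-type replicate 1 (-0.0087), in a gene that passed in no setting. With each library left out in turn, the log2 fold change ran from -0.72 to -0.58 for UPF1, from -0.51 to -0.43 for SMG8, from -0.50 to -0.45 for SMG9, from -0.042 to 0.17 for SMG6 and from 0.22 to 0.65 for UPF3B, and the log2 difference of UPF3A to UPF3B ran from -0.54 to 0.0074. Between 0 and 3 members were then called lower and 0 or 1 higher. Over all tested genes 488 to 1827 were then called higher and 821 to 1929 lower. Limma-voom moved UPF3B (0.44) and SMG1 (-0.20) past the threshold, with 1 member higher. With no filter SMG8 (-0.47) missed it with an adjusted p of 0.0597, and 693 genes were called higher and 1113 lower. The scaled sum over the members differed by -12.5 RPKM, by -7.77 RPKM as deposited and by -10.8 RPKM with median-of-ratios factors. In each of these cases the cause was not tested, except that fewer libraries or more genes enter those fits. As deposited, 2783 genes were higher and 2234 lower (55.5% of calls higher), against 2240 and 2792 (44.5%) after TMM scaling.

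The shared replicate numbers were not shown to pair libraries: the deviations of replicates 2 from 1 correlated across genes with r = 0.06 between the groups. A fit with the replicate block called 2348 genes higher and 2781 lower, and it changed no call among the 9 members, with 0 higher and 3 lower. Among the 12 other factors of the pathway it called 2 lower in place of 4, and in the termination and cap list 1 higher in place of 0. Depth limits UPF3A most, with 131 to 189 reads per library. With 2 libraries a group every p leans on limma's pooled spread, and each fit without a library assumes that the lone library varies like the other group. Transcript forms, protein levels and decay rates were not measured here.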

Other observations

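Coding genes that GENCODE 29 lists with at least 1 transcript annotated as a nonsense-mediated decay substrate were described as a class, as they would include direct substrates of the 9 factors. Of 13137 tested coding genes, 5504 had such a transcript, and 8.99% of these were called higher in knockdown cells and 16% lower, with a median log2 fold change of -0.05. Among the 7633 without one, 12.5% were called higher and 14.5% lower, with a median of -0.02. The classes also differ in exon length, with medians of 5684 bp and 4394 bp. Within the members' range of exon length and RPKM, 8.72% of 3382 genes with such a transcript were higher and 20.1% lower, against 11% and 19.9% of 3540 genes without one. Of the tenth of genes with the longest 3′ UTRs, 7.84% were called higher and 15% lower, and of the tenth with the shortest, 13.8% and 11.3%. The median exon length of these genes was 9102 bp in the first and 3415 bp in the second, and the share called higher also falls with exon length over all tested genes. These shares are descriptions of gene-level values, in which a change of 1 transcript form can be hidden by the others.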
